A study of Mus musculus with 9 samples.

Results

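The 8 transcription factors examined here, *Vsx1*, *Bhlhe23*, *Prdm8*, *Lhx3*, *Lhx4*, *Isl1*, *Irx5* and *Irx6*, act in the specification or maintenance of retinal bipolar cells. They were chosen by gene symbol, and all 8 of the 8 symbols were among the 25239 gene names in the tables of every library. The data are strand-specific bulk RNA-Seq of whole retinas of C57BL/6J background mice at P42, with a pair of retinas in each library. There were 3 libraries of wild type (+/+) retinas, 3 of retinas heterozygous for the *Rbpms*-CreERT2 allele (Cre/+) and 3 of homozygous retinas (Cre/Cre). In this knock-in allele, the end of RBPMS, an RNA-binding protein of retinal ganglion cells (RGCs), is joined through a P2A peptide to the tamoxifen-inducible recombinase CreERT2, so CreERT2 is driven by the *Rbpms* locus. The labels call the +/+ retinas wt, the paper also calls them controls, and the labels name no tamoxifen treatment for any library. The comparison of the genotypes asks whether the knock-in allele alters the retinal transcriptome.

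Bipolar cells carry signals from photoreceptors to amacrine cells and RGCs. Rod bipolar cells and ON cone bipolar cells respond to light increments through the metabotropic receptor encoded by *Grm6*, and OFF cone bipolar cells respond to light decrements through ionotropic glutamate receptors. Homeodomain factors such as *Otx2* act in the whole class, and the 8 factors act later or in fewer types. *Isl1* is required in ON bipolar cells and is also used by RGCs and starburst amacrine cells. *Bhlhe23* is required for rod bipolar cells and *Prdm8* for rod bipolar cells and some OFF cone bipolar cells. *Vsx1*, *Irx5* and *Irx6* act mainly in subtypes of cone bipolar cells, and the LIM-homeodomain paralogs *Lhx3* and *Lhx4* in further cone bipolar subtypes, with *Lhx4* also present in cones.

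The mm10 positions in the gene tables put *Vsx1* at chr2:150680702-150689137, *Bhlhe23* at chr2:180774381-180776900 and *Lhx3* at chr2:26200212-26208249, all on the minus strand. *Lhx4* (chr1:155701694-155742027) and *Isl1* (chr13:116298270-116309688) also lie on the minus strand, and *Prdm8* (chr5:98180869-98187448) on the plus strand. *Irx5* (chr8:92357796-92361456) and *Irx6* (chr8:92674289-92680956) lie on the plus strand of 1 Iroquois cluster, 312.8 kb apart. *A730035I17Rik*, a gene on the minus strand with 2.98 to 6.44 TPM, lies within *Prdm8*. Whether the counting used strand is not given in the sources used here, so *Prdm8* may include some of its reads.

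RefSeq promoter windows (GRCm38.p6) were found for 6 of the 8 factors, with 7 start sites in all. The 250 bases before each start were searched on both strands for TAATCC (the core bound by OTX and CRX homeodomains), TAATTA (a core bound by paired-like and LIM homeodomains) and the E-boxes CAGCTG and CATATG, none of which overlapped another in these windows. TAATCC occurred in the window of *Isl1* and in 6.25% of all 32851 windows, and CAGCTG in those of *Isl1*, *Prdm8* and *Vsx1* and in 13.0% of all windows. In *Vsx1*, 223 of the 250 bases are annotated as exon, and its matches lie in those. TAATTA (4.84% of all windows) and CATATG (3.46%) occurred in none of the 7. A match describes the letters and not a bound site. The sequences below are those of *Prdm8* and *Lhx3*, which had lower levels in all Cre/Cre libraries than in any +/+ library, and of *Isl1*, whose window held both motifs. They are written 5′ to 3′ in the direction of the gene without annotated exon bases, with motif matches in capitals.
*Prdm8*, chr5:98180619-98180868, plus strand: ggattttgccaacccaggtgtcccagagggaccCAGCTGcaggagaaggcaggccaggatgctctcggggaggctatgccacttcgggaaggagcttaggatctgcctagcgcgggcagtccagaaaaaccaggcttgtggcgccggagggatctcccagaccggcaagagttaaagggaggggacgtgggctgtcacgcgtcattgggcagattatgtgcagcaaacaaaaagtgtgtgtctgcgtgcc
*Lhx3*, chr2:26208290-26208499, minus strand: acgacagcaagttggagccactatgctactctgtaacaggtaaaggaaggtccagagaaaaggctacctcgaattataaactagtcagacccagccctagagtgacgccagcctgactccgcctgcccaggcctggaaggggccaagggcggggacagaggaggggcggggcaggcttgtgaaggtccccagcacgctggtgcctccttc
*Isl1*, chr13:116309690-116309938, minus strand: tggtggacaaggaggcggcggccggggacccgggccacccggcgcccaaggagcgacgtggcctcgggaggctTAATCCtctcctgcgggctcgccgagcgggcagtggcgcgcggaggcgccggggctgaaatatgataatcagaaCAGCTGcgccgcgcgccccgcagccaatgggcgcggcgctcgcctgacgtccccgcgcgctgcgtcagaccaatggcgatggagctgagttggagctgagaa
Counted from the start, the CAGCTG of *Prdm8* begins at position -217. In *Isl1*, TAATCC begins at -177 and CAGCTG at -103. For *Lhx3*, the sequence is that of the upstream of its 2 starts. A longer GENCODE transcript of *Prdm8*, Prdm8-202, starts 13.4 kb before its window.

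The libraries were of similar depth, 4.05 to 4.65 aligned gigabases, at a read length of 150 bases. *Rbpms*, the targeted gene, ranged from 38.4 to 43.4 TPM in +/+, 31.3 to 33.1 TPM in Cre/+ and 19.1 to 24.2 TPM in Cre/Cre, in the order of the labels. Cre/Cre replicate 1 stood apart. The ribosomal RNA precursor Rn45s took 9.21% of its TPM, against 0.0827% to 0.336% in the other 8 libraries, which lowers the TPM of other genes there. *Xist*, the long noncoding RNA of X inactivation, was at 516 to 585 TPM in 6 libraries and at 2.08 to 3.16 TPM in Cre/+ replicate 3, Cre/Cre replicate 1 and Cre/Cre replicate 3. Genotypes were compared with limma on log2(TPM + 1), a scale that understates the change of low genes, over the 15198 genes that averaged 1 TPM or more. All 8 factors passed this filter. Adjusted p-values follow Benjamini and Hochberg over all genes tested.

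Levels are given in TPM, which is per length of the gene. *Prdm8* was the most abundant of the 8 factors, with a mean of 112 TPM over the 9 libraries and rank 1796 among all genes. *Isl1* followed at 93.7 TPM, and *Prdm8* was above it in 9 of 9 libraries, although the ranges of the 2 genes overlapped. *Vsx1* (34.4 TPM), *Bhlhe23* (30.9 TPM) and *Lhx4* (29.6 TPM) formed a middle tier whose order was not stable. *Vsx1* was above *Bhlhe23* in 6 libraries, and *Bhlhe23* above *Lhx4* in 5. *Lhx3* (14.2 TPM) and *Irx6* (13.9 TPM) came next and also changed places, with *Lhx3* higher in 6 libraries. *Irx5* was lowest at 6.65 TPM, rank 11800, with a deposited coverage of 6.84 to 10.1 reads per base. The ranges of the 9 libraries did not overlap between *Isl1* and *Vsx1*, between *Lhx4* and *Lhx3*, or between *Irx6* and *Irx5*.

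**Figure D1:**
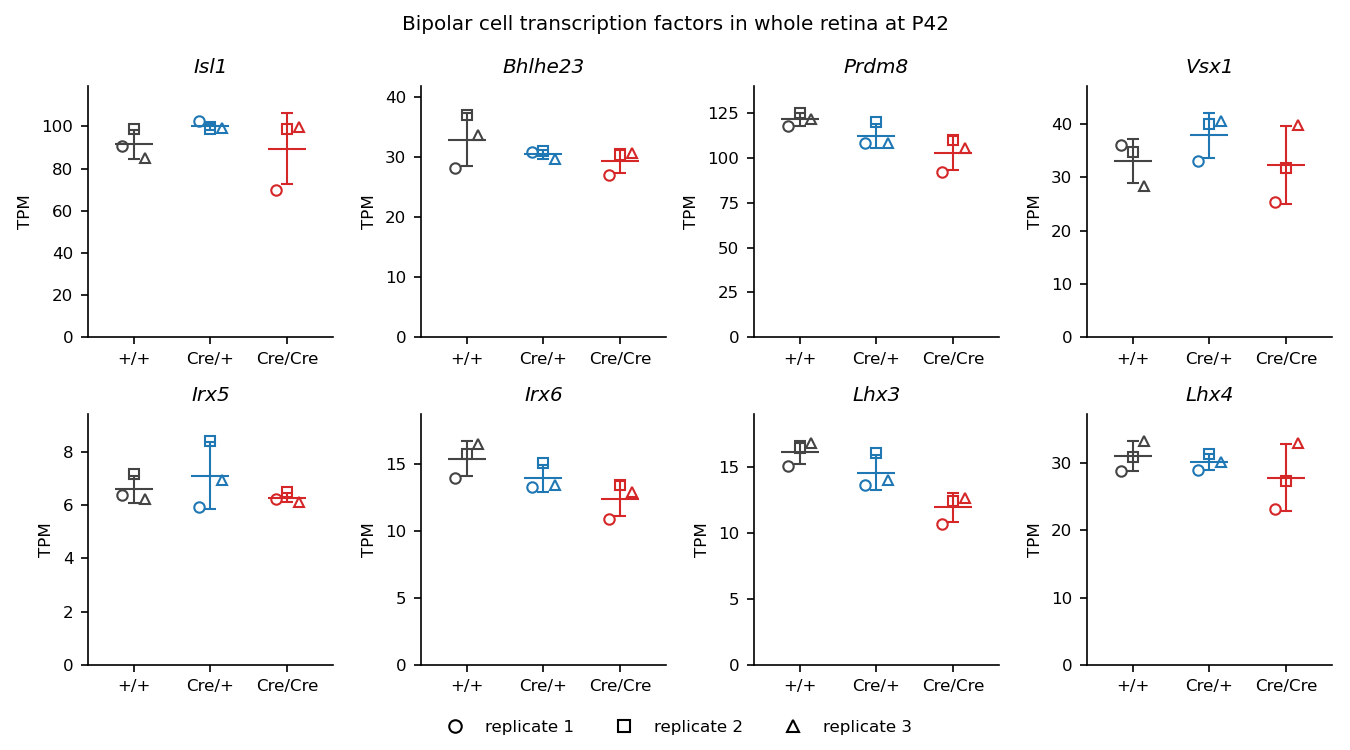
TPM of each factor in each library (symbols, by replicate number), with the mean and SD of the 3 libraries of each genotype (bars); the vertical axes start at 0 and differ between genes. *Lhx3*, *Prdm8* and *Irx6* were lower in every Cre/Cre library than in every +/+ library, as were 8.05% of all genes. Cre/Cre replicate 1 (circles) was the lowest library for all factors but *Irx5*.

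None of the 8 factors passed an adjusted p of 0.05 in limma in any comparison. Over all genes tested, 0.00658% were called in Cre/+ against +/+ and the same share in Cre/Cre against +/+ and in the trend per knock-in allele, and 0.0132% in Cre/Cre against Cre/+. At an unadjusted p under 0.05 in limma, 0 of 8 factors differed in Cre/+ (10.7% of all genes). In Cre/Cre, 3 of 8 did, *Lhx3*, *Prdm8* and *Irx6*, all lower (5.39% of all genes lower). The same 3 were lower in the trend per allele (4.82% of all genes), and *Lhx3* was the 1 factor lower in Cre/Cre against Cre/+ (4.2% of all genes). All 8 log2 fold changes in Cre/Cre were below 0, as were those of 57.7% of all genes. Their median was -0.16, against -0.024 for all genes. All 8 were also below 0 in Cre/Cre against Cre/+ (59.2% of all genes). In Cre/+, 5 of 8 were below 0 (49.6% of all genes), with a median of -0.068 against 0.0014. These comparisons share libraries.

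Part of this shift rests on 1 library. Cre/Cre replicate 1 was the lowest of the 9 libraries for 7 of the 8 factors, which summed to 265 TPM there and to 331 to 366 TPM elsewhere. Without this library, 6 of 8 log2 fold changes in Cre/Cre were below 0, with a median of -0.078 against 0.024 for all genes. With all libraries but Rn45s left out, all 8 were below 0, with a median of -0.11 against 0.018 for all genes. With median-ratio scaling, all 8 were below 0, with a median of -0.13 against 0.0031. In a whole retina, fewer bipolar cells and less RNA per bipolar cell cannot be told apart. Markers of other cells were also mostly below 0 in Cre/Cre. This held for 8 of 8 RGC, 6 of 6 amacrine, 6 of 6 rod and 4 of 4 horizontal cell markers. It also held for 4 of 5 Mueller glial, 5 of 7 cone and 3 of 5 starburst markers. Of the blood markers 2 of 5 were below 0, and of the lens markers 0 of 4. How far the shift is particular to bipolar cells was not tested.

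Among the factors required in rod or ON bipolar cells, *Prdm8*, a PR domain protein that represses transcription, showed the clearest difference. It is also required for some OFF cone bipolar cells. Its level was 118, 125 and 122 TPM in +/+, 108, 120 and 109 TPM in Cre/+, and 92.2, 110 and 106 TPM in Cre/Cre. The Cre/Cre libraries were all below the +/+ libraries (8.05% of all genes were lower without overlap), and 2 of the 3 Cre/+ libraries lay below the highest Cre/Cre library. Means were 121.6 ± 3.67 TPM (+/+), 112.3 ± 6.72 TPM (Cre/+) and 102.8 ± 9.45 TPM (Cre/Cre; SD, n = 3 each), so that Cre/Cre was at 84.5% of +/+. Against +/+, Cre/Cre had a log2 fold change of -0.24 (SE 0.08, 95% interval -0.42 to -0.07), with an unadjusted p of 0.00885 and an adjusted p of 0.595 in limma. The exact two-sided permutation test gave p = 0.1, the smallest that 3 against 3 libraries allow. Without Cre/Cre replicate 1 the log2 fold change was -0.17.

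*Isl1*, a LIM-homeodomain factor, had 90.6, 98.8 and 85.2 TPM in +/+, 102, 98.9 and 99.1 TPM in Cre/+, and 69.8, 99.0 and 99.5 TPM in Cre/Cre. The Cre/+ libraries were narrowly above the +/+ libraries (11.9% of all genes were higher without overlap), while 1 Cre/Cre library was far below the other two. Against +/+, *Isl1* had a log2 fold change of 0.13 for Cre/+ (95% interval -0.12 to 0.38) and of -0.048 for Cre/Cre (-0.30 to 0.20), and without Cre/Cre replicate 1 the latter was 0.12. RGCs and starburst amacrine cells also use *Isl1*. All 8 RGC markers had negative log2 fold changes in Cre/Cre (57.7% of all genes), with *Rbpms*, the targeted gene, among them. Their summed level was 1308 to 1347 TPM among +/+ libraries, 1241 to 1273 TPM among Cre/+ and 959 to 1147 TPM among Cre/Cre libraries. The 5 starburst markers summed to 101 to 109, 103 to 111 and 94.7 to 102 TPM in the same order, and no marker of either list was at 0. Their part in the *Isl1* values was not tested.

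*Bhlhe23*, a basic helix-loop-helix factor, had 28.2, 37.0 and 33.6 TPM in +/+, 30.8, 31.1 and 29.6 TPM in Cre/+, and 27.1, 30.3 and 30.6 TPM in Cre/Cre. The genotypes overlapped, and the widest spread was among the +/+ libraries. Fold changes against +/+ were -0.098 for Cre/+ on the log2 scale (95% interval -0.31 to 0.11) and -0.15 for Cre/Cre (-0.37 to 0.06), with 0 inside both intervals. The Cre/Cre value rests on single +/+ libraries, and was -0.26 without +/+ replicate 1 (unadjusted p 0.0196 in limma) and -0.069 without +/+ replicate 2.

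Among the factors of cone bipolar subtypes, *Vsx1*, a paired-like homeodomain factor, had 36.0, 34.7 and 28.4 TPM in +/+, 33.0, 39.9 and 40.7 TPM in Cre/+, and 25.4, 31.7 and 39.9 TPM in Cre/Cre. All 3 genotypes overlapped, and its spread over the 9 libraries was the widest of the 8 factors (coefficient of variation 15.5%). Against +/+ its log2 fold change was 0.19 for Cre/+ (95% interval -0.14 to 0.52) and -0.048 for Cre/Cre (-0.38 to 0.28).

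The Iroquois genes *Irx5* and *Irx6* are homeodomain factors of cone bipolar subtypes. *Irx6* had 13.9, 15.8 and 16.5 TPM in +/+, 13.3, 15.1 and 13.4 TPM in Cre/+, and 10.9, 13.4 and 12.9 TPM in Cre/Cre. The Cre/Cre libraries were below the +/+ libraries without overlap (8.05% of all genes were lower without overlap). The highest Cre/Cre library and the lowest +/+ library were close, however. For *Irx6*, the log2 fold change in Cre/Cre was -0.29 (SE 0.12, 95% interval -0.54 to -0.05), with an unadjusted p of 0.0227 and an adjusted p of 0.655 in limma, and the exact permutation p was 0.1. *Irx6* was -0.21 without Cre/Cre replicate 1, with an unadjusted p of 0.0871. *Irx5* had 6.36, 7.17 and 6.23 TPM in +/+, 5.92, 8.41 and 6.94 TPM in Cre/+, and 6.24, 6.47 and 6.12 TPM in Cre/Cre. Its genotypes overlapped, and it was the only factor that was not lowest in Cre/Cre replicate 1. For *Irx5*, it was 0.084 with Cre/+ (95% interval -0.22 to 0.39) and -0.058 with Cre/Cre (-0.37 to 0.25). That the changes of the 2 genes differ was not tested.

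*Lhx3* had the largest fold change among the 8 factors in Cre/Cre. Its level was 15.1, 16.4 and 16.8 TPM in +/+, 13.6, 16.1 and 14.0 TPM in Cre/+, and 10.7, 12.4 and 12.7 TPM in Cre/Cre. The Cre/Cre libraries were below all 6 libraries of the other genotypes. Of all genes, 8.05% were lower without overlap against +/+ and 7.23% against Cre/+. The share lower than both is not given here. Means were 16.1 ± 0.89 TPM (+/+), 14.6 ± 1.31 TPM (Cre/+) and 11.9 ± 1.09 TPM (Cre/Cre; SD, n = 3 each), so that Cre/+ was at 90.5% and Cre/Cre at 74.1% of +/+. This is a log2 fold change of -0.41 for Cre/Cre (SE 0.11, 95% interval -0.64 to -0.17), with an unadjusted p of 0.00236 and an adjusted p of 0.542 in limma. The interval excludes a 2-fold decrease. Against Cre/+, the log2 fold change was -0.27, with an adjusted p of 0.74 in limma. Exact permutation gave p = 0.1 for both comparisons. In Cre/+ against +/+ it was -0.14 (95% interval -0.38 to 0.10).

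*Lhx4* had 28.7, 30.9 and 33.3 TPM in +/+, 28.9, 31.3 and 30.1 TPM in Cre/+, and 23.1, 27.4 and 32.9 TPM in Cre/Cre. The genotypes overlapped, and Cre/Cre replicate 3 was at the level of the highest +/+ library. Its log2 fold change was -0.037 for Cre/+ (95% interval -0.27 to 0.20) and -0.16 for Cre/Cre (-0.40 to 0.07). The latter was -0.29 without Cre/Cre replicate 3 (unadjusted p 0.0149 in limma) and -0.041 without Cre/Cre replicate 1. The 7 cone markers, which mark other cells with *Lhx4*, had a summed level of 2673 to 2840 TPM among +/+, 2661 to 2798 TPM among Cre/+ and 2574 to 2863 TPM among Cre/Cre libraries, and none was at 0. Their log2 fold changes in Cre/Cre ran from -0.22 to 0.30, with 5 of 7 below 0, and at an unadjusted p under 0.05 2 were lower and 1 higher. Their part in the *Lhx4* values was not tested. Within a library, the ratio of *Lhx4* to *Lhx3* does not depend on how the library is scaled. It was 1.90, 1.88 and 1.98 in +/+, 2.12, 1.95 and 2.15 in Cre/+, and 2.16, 2.20 and 2.60 in Cre/Cre, so that the Cre/Cre libraries were above the rest, Cre/Cre replicate 1 included. The ratio of *Irx6* to *Irx5* was 2.19 to 2.65 in +/+, 1.79 to 2.25 with Cre/+ and 1.75 to 2.11 with Cre/Cre, and all 3 Cre/Cre libraries were below the lowest +/+ library. The ratio of *Prdm8* to *Isl1*, the 2 most abundant factors, was 1.27 to 1.43 in +/+, 1.06 to 1.21 with Cre/+ and 1.06 to 1.32 with Cre/Cre. Here Cre/Cre overlapped +/+, with Cre/Cre replicate 1 inside the +/+ range, and all 3 Cre/+ libraries were below it. No ratio was tested. *Lhx3* and *Irx6* were already lower in Cre/Cre without overlap, so their ratios use the same values again.

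**Figure D2:**
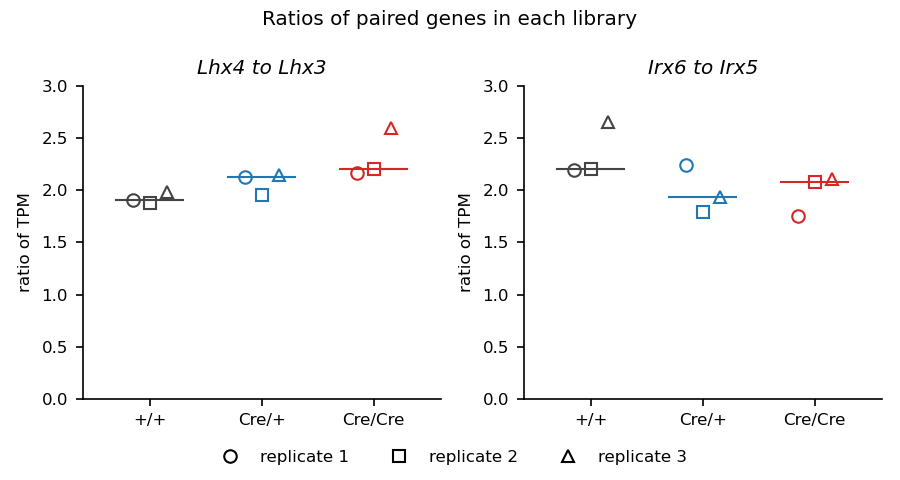
Ratio of the TPM of *Lhx4* to *Lhx3* (left) and of *Irx6* to *Irx5* (right) in each library (symbols, by replicate number), with the median of each genotype (lines). The first ratio was 2.16 to 2.60 in Cre/Cre and 1.88 to 1.98 in +/+, and the second 1.75 to 2.11 in Cre/Cre and 2.19 to 2.65 in +/+.

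**Figure D3:**
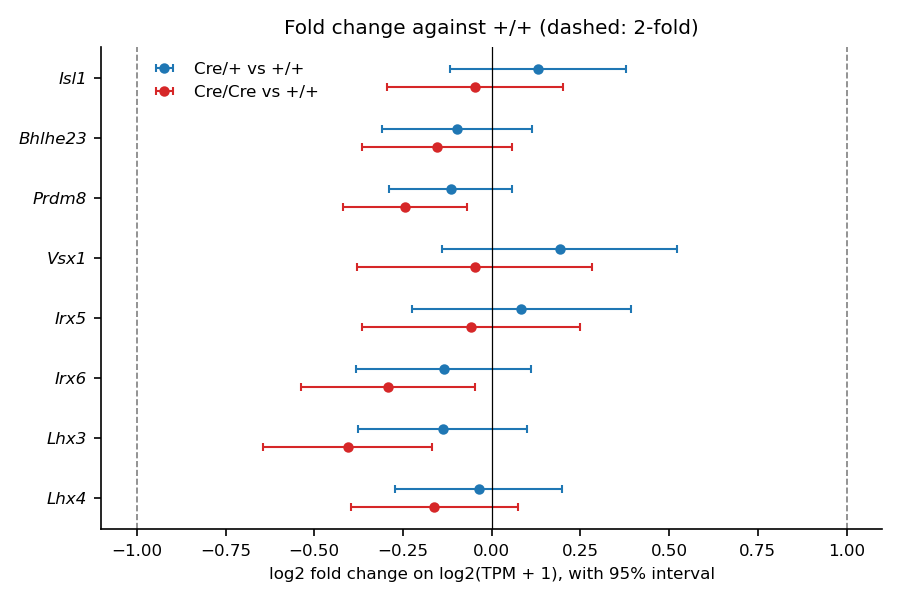
Log2 fold change of each factor in Cre/+ and in Cre/Cre against +/+, from limma on log2(TPM + 1), with 95% intervals; dashed lines mark a 2-fold change. In Cre/Cre the intervals of *Lhx3*, *Prdm8* and *Irx6* lie below 0, without adjustment for the number of genes tested, and no interval reaches a 2-fold change.

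The 3 factors that were lower in Cre/Cre than in +/+ without overlap (8.05% of all genes) were set against other features that differed between the groups of libraries. RGC markers were lower in Cre/Cre (above), 7 of 8 at an unadjusted p under 0.05 in limma (5.39% of all genes lower), with a median log2 fold change of -0.33. Of these markers, 1 passed an adjusted p of 0.05 in limma, *Rbpms* itself (log2 fold change -0.96), the only gene called of 15198. The list includes *Rbpms*, the targeted gene, at 50.4% of +/+, so it is not a measure of RGC content alone. *Xist* was low in 2 of the 3 Cre/Cre libraries and in no +/+ library, so this sign of sex is not balanced across genotypes. The paper gave no preference to sex in its groups of animals. The part of RGC content in the lower factors was not tested. The 6 libraries with high *Xist* hold 1 Cre/Cre library, replicate 2, which allows no test. It had 12.4 TPM of *Lhx3*, 110 TPM of *Prdm8* and 13.4 TPM of *Irx6*. That each value is below the lowest +/+ library follows from how these 3 factors were picked, and says nothing about *Xist*. With *Xist* as a covariate, the log2 fold change in Cre/Cre was -0.35 for *Lhx3* (unadjusted p 0.0238), -0.17 for *Prdm8* (0.112) and -0.21 for *Irx6* (0.157) in limma. *Lhx3* had a log2 fold change of -0.45 to -0.33 over the 10 other settings and the 9 fits that each left out 1 library. Its unadjusted p in limma was under 0.05 in each. Its adjusted p lay between 0.33 and 0.995. Several of these fits, such as those without a Cre/+ library, cannot move the fold change and alter only its p.

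**Figure D4:**
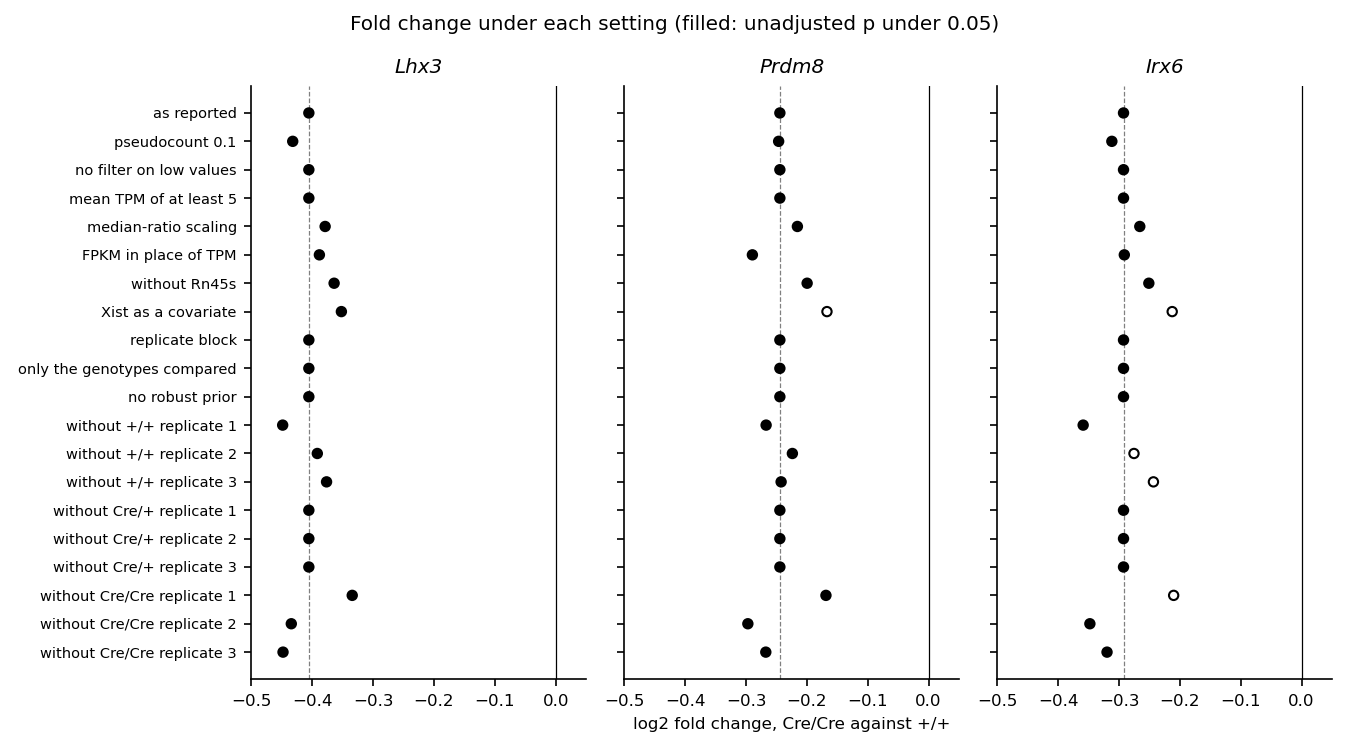
Log2 fold change of *Lhx3*, *Prdm8* and *Irx6* in Cre/Cre against +/+ as reported, under 10 other settings and without each library; filled symbols have an unadjusted p under 0.05 in limma. All values are below 0, those of *Lhx3* are filled throughout, those of *Prdm8* are open with *Xist* as a covariate, and those of *Irx6* also without +/+ replicate 2, +/+ replicate 3 or Cre/Cre replicate 1. Fits without a Cre/+ library, among others, cannot move the fold change.

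Other genes of bipolar cells were taken from 3 lists of 37 genes, of which 36 were tested; *Fut4* was below the filter. None passed an adjusted p of 0.05 in limma, where the smallest value was 0.396 for Cre/+ and 0.594 for Cre/Cre. In Cre/Cre, 30 of 36 log2 fold changes were below 0 (57.7% of all genes), with a median of -0.14. At an unadjusted p under 0.05 in limma, 7 genes were lower and 0 higher (5.39% and 1.58% of all genes). The 3 Cre/Cre libraries summed to 549, 666 and 668 TPM for the cone bipolar list, against 680 to 748 TPM in +/+. For the rod and ON bipolar list they summed to 1451, 1637 and 1647 TPM, against 1654 to 1838 TPM. For the other regulators, the sums were 1659, 1834 and 1929 TPM, against 1750 to 1807 TPM. How far the fold changes rest on the lowest library was not tested. *Pcp2*, a G protein regulator of rod and ON bipolar cells, was -0.28, *Nyx*, which encodes nyctalopin of the ON synapse, -0.26, and *Grm6*, the glutamate receptor of ON bipolar cells, -0.23. Of the cone bipolar genes, *Kcng4*, a potassium channel subunit, was -0.38, *Scgn*, a calcium-binding protein, -0.24, and *Nnat* -0.22. *Fezf2*, a zinc finger factor, was -0.33, and *Lrrtm1*, a synaptic adhesion protein, -0.29 with an unadjusted p of 0.0659. The highest in Cre/Cre were *Crx*, a factor also of photoreceptors, at 0.072, *Strip2* at 0.052 and *Otx2* at 0.022. *Otx2* averaged 281 TPM in +/+ and 286 TPM in Cre/Cre. The median was -0.067 for the 9 other regulators, -0.096 for the 11 rod and ON bipolar genes and -0.17 for the 16 tested cone bipolar genes, whose counts at an unadjusted p under 0.05 were 1, 3 and 3.

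In Cre/+, 17 of 36 log2 fold changes were below 0 (49.6% of all genes), with a median of 0.023. At an unadjusted p under 0.05, *Nnat* was lower (-0.25) and *Crx* higher (0.15), where 5.82% of all genes were lower and 4.9% higher. The lowest were *Nnat*, *Igfn1* at -0.20 and *Cpne9* at -0.15, and the highest *Neto1* at 0.23, *Irx3* at 0.21 and *Tacr3* at 0.17. *Irx3*, the third Iroquois gene of the cluster, averaged 3.40 TPM (+/+), 4.11 TPM (Cre/+) and 2.90 TPM (Cre/Cre).

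**Figure D5:**
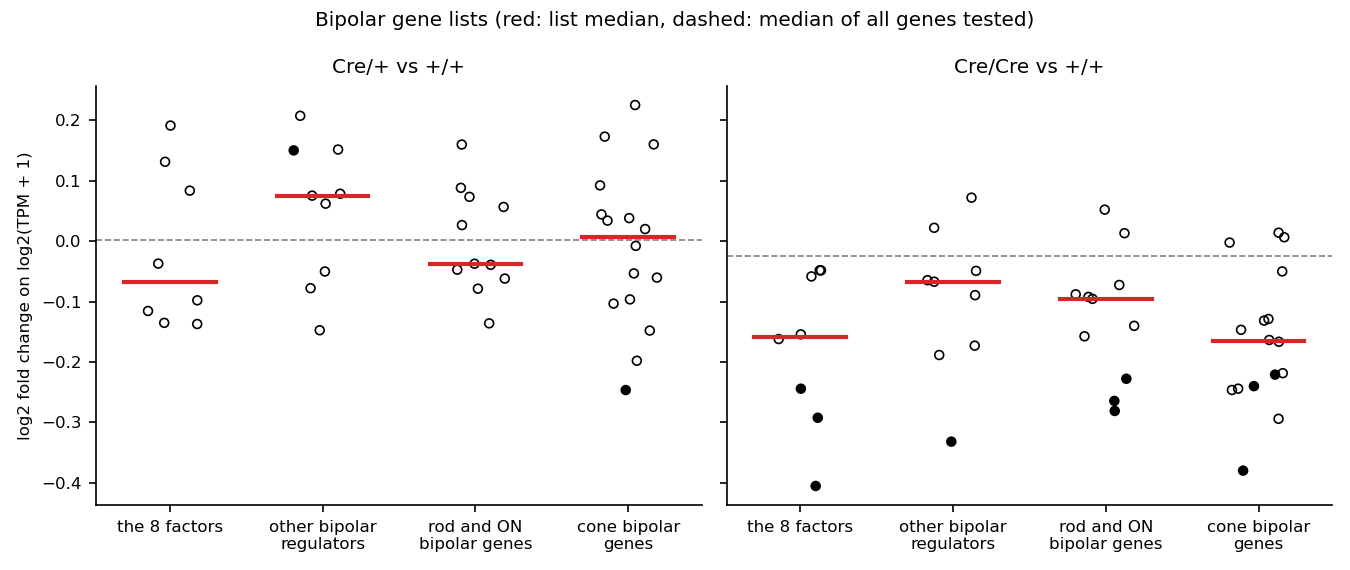
Log2 fold change of each tested gene of the 8 factors and of 3 lists of bipolar genes, in Cre/+ (left) and Cre/Cre (right) against +/+; filled symbols have an unadjusted p under 0.05 in limma, red lines are list medians and dashed lines the median of all genes tested. In Cre/Cre the list medians were -0.16, -0.067, -0.096 and -0.17, from left to right, against -0.024 for all genes.

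The genes with the most similar pattern over the 9 libraries were found for each factor by Pearson correlation of log2(TPM + 1). These values describe libraries that share depth, RNA composition and genotype, and the best of 15198 genes is high by selection. *Irx6* was most like *Prdm8* (r = 0.963) and *Tubb5*. *Prdm8* was most like *Tuba1a* (r = 0.97) and *Pou4f2*, an RGC factor, and *Lhx3* most like *Wscd1* and *Neurod2* (both r = 0.96). *Vsx1* was most like *Rftn2* (r = 0.99) and *Prkcb*, and *Bhlhe23* like *Rpl27* (r = 0.98) and *Dctn3*. *Isl1* was most like *Pla2g7* and *Hdgf* (both r = 0.98), with Spearman's rho of only 0.683 and 0.6, and its level in Cre/Cre replicate 1 was far from the other libraries. *Lhx4* was most like *Atp6v0e2* (r = 0.97) and *Mapre3*, and *Irx5*, whose best values were the lowest, like *Rai14* (r = 0.92) and *Zbtb8b* (r = 0.90).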

How the data were processed

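RNA of whole retinas at P42 was sequenced by the authors as strand-specific poly(A) libraries with paired reads of 150 bases. They used Trimmomatic, HISAT2 on mm10 and StringTie, and versions and annotation are not given in the sources used here. The deposited tables hold TPM, scaled by the authors' software to 1000000 per library. They also hold deposited FPKM, from which an alternative was computed, and deposited coverage, the mean reads per base. Coverage over FPKM gave the aligned bases. The tables hold no counts, so the authors' DESeq2 test was not repeated and counting error is unknown.

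Rows that shared a gene name were added up. The test was limma 3.58.1 (trend and robust prior) in R 4.3.3 on log2(TPM + 1), with genotype as the only term for all 9 libraries (6 residual degrees of freedom) and a mean TPM of at least 1. Scripts were tested on simulated data. Exact permutation tests (scipy 1.17.1) were two-sided. Genotype came from the labels. The methods describe repeats and a pair of retinas per library, with several animals in each group, but no label ties a library to an animal, so p-values measure the spread between libraries.

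The members, lists and tests were chosen with earlier results of these data known. The genes named are the 8 factors, the bipolar list genes with the 3 highest and 3 lowest log2 fold changes or an unadjusted p under 0.05 against +/+, *Rbpms*, the 2 genes most like each factor, and marker genes where their sum is given. *Xist*, Rn45s and the gene overlapping *Prdm8* fall outside this rule and were chosen after their values were seen. Alternatives were a pseudocount of 0.1, no filter, a mean TPM of at least 5, median-ratio scaling, FPKM, leaving out Rn45s, *Xist* as a covariate, a replicate block, only the genotypes compared, no robust prior, and each library left out. Some genes were left out of the regulator list and are not reported here. Further marker lists were summed. The 6 amacrine markers reached 1015 to 1061 TPM in +/+ and 892 to 1046 TPM in Cre/Cre, the 6 rod markers 45165 to 47653 and 39358 to 45282, the 4 horizontal cell markers 186 to 221 and 166 to 215, the 5 Mueller glial markers 3598 to 4021 and 3334 to 3678, the 5 lens markers 123 to 175 and 63.7 to 900, and the 5 blood markers 151 to 182 and 185 to 300.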

Additional observations from a re-analysis of the deposited data

How the results depend on the processing

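With 3 libraries per genotype and no counts, fold changes of the size seen here did not pass adjustment, and a missed threshold does not show equal levels. Under every setting run, the 8 factors had 0 calls at an adjusted p of 0.05. The labels do not say whether replicate numbers pair the libraries. Correlations between the deviations of same-numbered libraries ran from -0.116 to 0.128, and those of differently numbered libraries from -0.194 to 0.261. This shows no pairing but cannot exclude one. With the replicate block, 0 factors were called and 3 had an unadjusted p under 0.05 in limma in Cre/Cre, as many as without it.

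Of the log2 fold changes of single factors under other settings, 297 kept their direction and their side of the threshold and 7 turned, none of them a called value. Many of the 297 could not move. By design, the fold change is the same with no filter, a higher filter, a replicate block or no robust prior. It is also the same with only the genotypes compared, or without a library of the third genotype. *Xist* as a covariate turned *Isl1* in Cre/Cre (0.048). Leaving out single libraries gave -0.088 to 0.014 for *Lhx4* and -0.031 to 0.19 for *Irx5* in Cre/+, and -0.21 to 0.11 for *Vsx1* and -0.13 to 0.12 for *Isl1* in Cre/Cre. The cause was not tested. *Prdm8* in Cre/Cre ran from -0.30 to -0.17 and *Irx6* from -0.36 to -0.21 over all settings. With *Xist* as a covariate, both lost their unadjusted p under 0.05 in limma. *Irx6* also lost it without +/+ replicate 2, +/+ replicate 3 or Cre/Cre replicate 1.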
